A study of Mus musculus with 4 samples.

Results

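The naive and memory lymphocyte program examined here is a set of 10 genes chosen by name, with earlier results of these data known. They include the cytokine receptor gene Il7r, the egress receptor gene S1pr1 and the nuclear factors Lef1, Tcf7, Satb1, Ets1, Bach2 and Klf2. The others are the kinase gene Txk and the membrane protein gene Ms4a4b. Of the 10, 9 had a probe set with a symbol in the platform annotation, out of 19505 genes in all, and each of the 9 had 1 probe set. The level of Tcf7 was not analysed here. The 4 libraries came from macrophage populations sorted from the hearts of wild-type C57BL/6N mice, 15 to 16 weeks old, after transverse aortic constriction (TAC), an operation that constricts the aorta and makes the heart pump against raised pressure. The hearts of 6 mice were pooled before sorting, and each population, named by its title as CD74, Ccrl2, CD163 or Trem2, gave 1 Clariom S array of total RNA. All 4 populations shared strain, surgery and tissue and none came from an unoperated heart. Source names place sampling at 8 weeks after TAC and the growth protocol at 1 week. The library titled CD74 is called CD9-positive in its source name. Lyve1 stands in the growth protocol in the place of CD163. No source here gives a driver, a clone or the purity of the sorts.

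Naive and memory T cells circulate in a resting state that rests on a small set of regulators. Interleukin-7, read through the receptor encoded by Il7r, keeps them alive, the HMG-box factors Lef1 and Tcf7 hold their identity, and Klf2 drives S1pr1, the receptor through which they leave lymphoid organs. Several members work in other cells as well: Klf2, S1pr1 and Ets1 are active in endothelium, Bach2 in B cells, and Il7r and Ets1 in innate lymphoid and NK cells.

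Values are the deposited log2 values, so that a difference of 1 is 2-fold. A value of one gene was not set against that of another, except in sums over marker lists. Such sums weigh the brightest genes of a list most. The background ceiling of a library is the 95th percentile of its values for 1498 chemosensory receptor and keratin-associated protein genes. It lay at 6.53 in CD74, 5.67 in Ccrl2, 6.28 in CD163 and 5.51 in Trem2, with 3621, 7454, 4984 and 8144 genes above it. For a call of higher, a value had to exceed the ceiling of its own array and be at least 2-fold above the value it was set against. Each population had 1 array, so no value below has an error or a test, and array number sets the limit on precision. Of the 10 macrophage markers with a probe set, all 10 lay above the ceiling in Ccrl2, CD163 and Trem2 and 8 in CD74. Csf1r, which encodes the CSF-1 receptor that macrophages depend on, had 9.40 in CD74 against 18.60 in CD163, 19.19 in Trem2 and 19.59 in Ccrl2, and Fcgr1 and Mertk were not above the ceiling in CD74. The defining markers of the labelled cell type were thus weakest in CD74. In these bulk libraries fewer cells of a type and less RNA per cell cannot be told apart.

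The program was most fully measured in the CD74 library. All 9 members lay above the ceiling there, against 8 in Trem2, 5 in Ccrl2 and 3 in CD163. Il7r, Lef1, Satb1, Txk and Ms4a4b, 5 of the 9, were at least 2-fold higher in CD74 than in each other library, against 4.42% of the 9346 genes above a ceiling anywhere. The same 5 kept the call when values under a ceiling were raised to it (1.78% of genes). Ets1 was highest in CD74 with a smaller margin over Trem2, while Bach2, Klf2 and S1pr1 were not highest there on the deposited values. Klf2 was the 1 member at least 2-fold lower in CD74 than in each other library (15.6% of genes), a call that ended after quantile normalization.

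The promoters of the 4 members that were bright in CD74 and at or near background elsewhere are shown. Satb1 shared the call in CD74 over each other library but was well above background in Trem2 and Ccrl2, so its promoter is not shown. Each is the 250 bases before the most upstream RefSeq start of the gene in GRCm38.p6, written 5′ to 3′ on the gene's strand: Il7r at chr15:9529877-9530126 (minus strand), Lef1 at chr3:131110047-131110296 (plus), Txk at chr5:72752778-72753027 (minus) and Ms4a4b at chr19:11443308-11443557 (plus). Capitals mark matches on either strand to a motif that was searched.
Il7r: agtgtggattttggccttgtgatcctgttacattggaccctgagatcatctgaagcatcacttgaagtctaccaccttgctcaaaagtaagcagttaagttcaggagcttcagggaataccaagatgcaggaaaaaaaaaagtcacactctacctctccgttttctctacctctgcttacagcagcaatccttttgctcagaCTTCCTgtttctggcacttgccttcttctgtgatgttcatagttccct
Lef1: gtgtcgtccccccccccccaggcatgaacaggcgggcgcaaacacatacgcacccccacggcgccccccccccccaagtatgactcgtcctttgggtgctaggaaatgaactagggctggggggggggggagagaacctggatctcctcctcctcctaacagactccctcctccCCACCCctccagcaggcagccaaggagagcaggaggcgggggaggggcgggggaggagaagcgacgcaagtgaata
Txk: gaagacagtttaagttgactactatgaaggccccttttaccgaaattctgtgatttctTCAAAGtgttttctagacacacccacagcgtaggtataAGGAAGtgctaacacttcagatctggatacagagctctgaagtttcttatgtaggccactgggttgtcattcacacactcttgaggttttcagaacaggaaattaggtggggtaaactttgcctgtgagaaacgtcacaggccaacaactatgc
Ms4a4b: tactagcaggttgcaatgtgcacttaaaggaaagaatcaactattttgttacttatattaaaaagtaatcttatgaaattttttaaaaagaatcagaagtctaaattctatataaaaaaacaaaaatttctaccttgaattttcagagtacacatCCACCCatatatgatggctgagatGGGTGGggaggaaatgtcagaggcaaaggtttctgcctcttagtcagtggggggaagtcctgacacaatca

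The motifs searched on both strands were CTTTGA for the TCF and LEF factors, CCGGAA for ETS factors, TGACTCA for BACH and AP-1 factors and CCACCC for KLF factors. Another ETS core (AGGAAG) was added after the sequences had been read. Promoters of 8 members were found, all but those of Ets1 and S1pr1, and the counts of 8 include Tcf7, of which only the promoter was searched. Txk and Bach2 held CTTTGA, 2 of 8, where 14.1% of 27025 promoters of that length did. In Txk it lay 192 to 187 bases before the start, read on the opposite strand as TCAAAG. The added ETS core AGGAAG occurred in Il7r and Txk (29.2% of promoters), in Il7r 48 to 43 bases before the start as CTTCCT and in Txk at 154 to 149 bases. CCACCC occurred in Lef1, Klf2 and Ms4a4b, 3 of 8 (27.6%), with 2 matches in Ms4a4b that did not overlap. CCGGAA was found in Bach2 (12.3%) and TGACTCA in none of the 8 (4.43%). No motif was thus common to the 4 promoters shown, and a match describes letters in this window only.

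**Figure D1:**
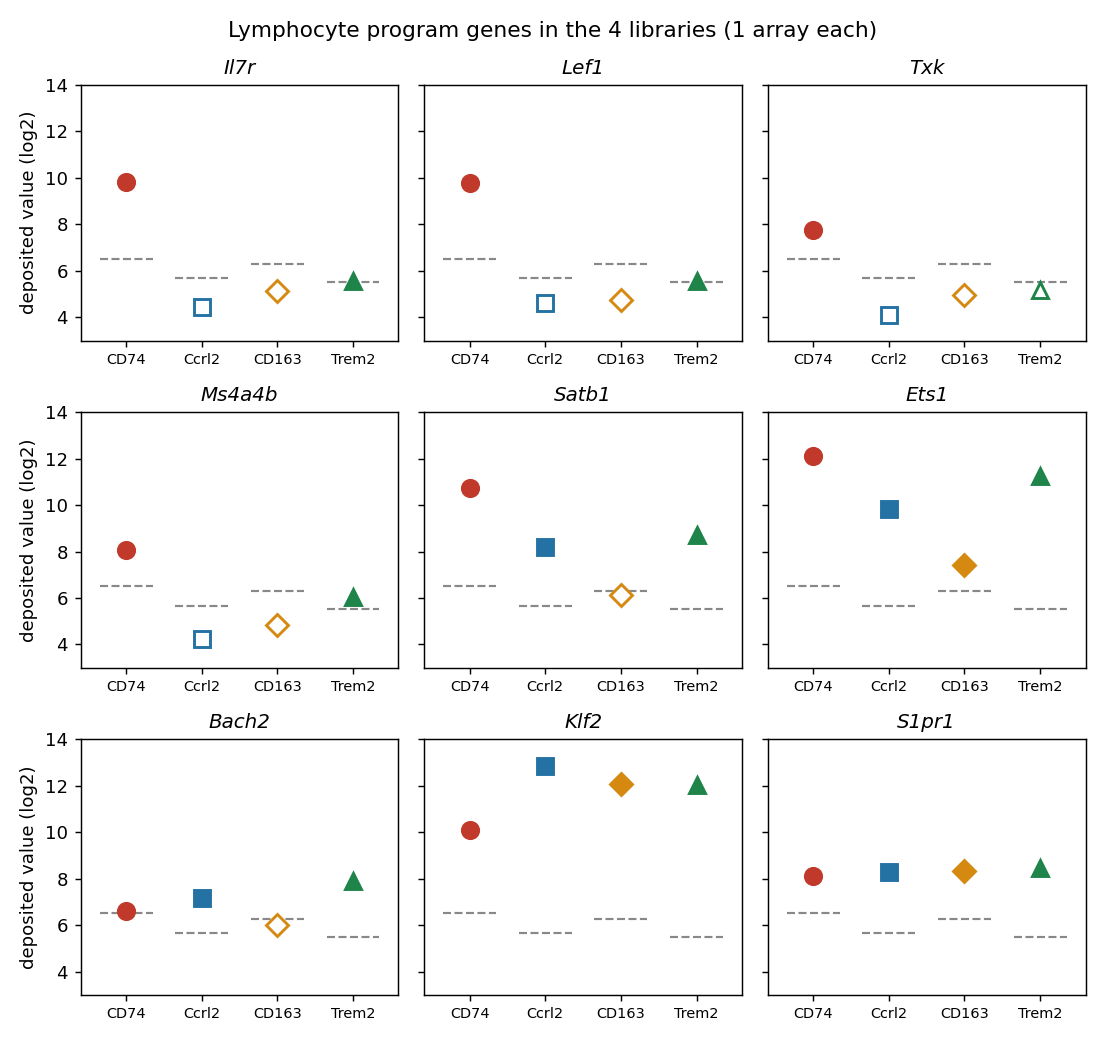
Deposited log2 value (y axis) of each of the 9 genes in the CD74, Ccrl2, CD163 and Trem2 libraries (x axis), 1 array each, with no error bars because there are no replicates. Dashed lines are the background ceilings of each library and open symbols are values not above them. Il7r, Lef1, Txk and Ms4a4b stand clear of the ceiling in CD74 and lie under or within 0.53 log2 units above it elsewhere.

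Among the receptors, Il7r, the interleukin-7 receptor alpha chain (probe set TC1500001197.mm.2), had a value of 9.84 in CD74, 5.56 in Trem2, 5.15 in CD163 and 4.46 in Ccrl2. It was above background in CD74 and by only 0.05 in Trem2, and not above the ceiling in CD163 and Ccrl2. The log2 difference between CD74 and Trem2 was 4.28, or 19.4-fold. Against the ceilings of the other 2 libraries Il7r was at least 11.8-fold higher than in CD163 and at least 18.0-fold higher than in Ccrl2. For comparison, the 95th percentile of CD74 minus Trem2 over the 8522 genes tested was 1.53 log2 units.

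S1pr1, the sphingosine-1-phosphate receptor of lymphocyte egress and of vessel integrity (probe set TC0300002797.mm.2), was the most even member. Its values were 8.10 in CD74, 8.30 in Ccrl2, 8.35 in CD163 and 8.44 in Trem2, all above the ceiling. They spanned 0.34 log2 units, and without replicates the order of these neighbours cannot be told from noise. The order turned with scaling, since after quantile normalization CD74 had 9.15, CD163 8.85, Trem2 7.83 and Ccrl2 7.80, which put CD74 over the 2-fold threshold against Trem2 (1.31) and Ccrl2 (1.34). S1pr1 therefore did not share the contrast of Il7r on the deposited values.

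Of the nuclear factors, Lef1, the HMG-box partner of beta-catenin (probe set TC0300001330.mm.2), came closest to Il7r. It had 9.76 in CD74, 5.55 in Trem2, 4.73 in CD163 and 4.62 in Ccrl2, and was above the ceiling in CD74 and by 0.04 in Trem2. Lef1 was 18.5-fold higher in CD74 than in Trem2, at least 11.2-fold higher than in CD163 and at least 17.0-fold higher than in Ccrl2. Its promoter is the second of those printed.

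Satb1, a chromatin organiser of T cell development (probe set TC1700002267.mm.2), had 10.75 in CD74, 8.69 in Trem2, 8.19 in Ccrl2 and 6.11, not above the ceiling, in CD163. In contrast to Il7r and Lef1 it was well above background in Trem2 and Ccrl2. The CD74 value was 4.17-fold above Trem2, 5.90-fold above Ccrl2 and at least 22.2-fold above CD163.

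Ets1, the founding ETS factor, needed for T and NK cell development (probe set TC0900000296.mm.2), had 12.13 in CD74, 11.25 in Trem2, 9.81 in Ccrl2 and 7.44 in CD163, all above the ceiling. It formed a gradient with CD163 at the bottom. CD74 exceeded CD163 by 25.8-fold and Ccrl2 by 4.99-fold, and Trem2 exceeded CD163 by 3.81 and Ccrl2 by 1.44 log2 units. The margin of CD74 over Trem2 was 0.88 log2 units, or 1.84-fold, under the 2-fold threshold, but 3.14 after quantile normalization.

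Bach2, a repressor that holds lymphocytes back from effector fates (probe set TC0400000254.mm.2), had 7.91 in Trem2, 7.19 in Ccrl2, 6.60 in CD74 and 5.99, not above the ceiling, in CD163. Among the nuclear factors of the set that were measured, it alone was highest in Trem2, and it lay just 0.07 above the ceiling in CD74. Trem2 was 2.48-fold above CD74 and at least 3.10-fold above CD163, and after quantile normalization the difference CD74 minus Trem2 shrank to -0.29 and CD74 minus Ccrl2 changed from -0.59 to 0.19. Markers of B cells, which also express Bach2, were highest in the same library: all 11 with a probe set lay above the ceiling in Trem2, against 7 in CD74, 7 in Ccrl2 and 3 in CD163. The log2 of their summed level was 14.14, 11.97, 12.12 and 10.80 in the same order, with Pax5 at 8.17 in Trem2, 6.88 in Ccrl2, 6.84 in CD74 and 4.09 in CD163. Their part in the Bach2 values was not tested.

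Klf2, the Krüppel-like factor of T cell quiescence and of endothelium under flow (probe set TC0800000823.mm.2), ran the other way. It had 12.85 in Ccrl2, 12.08 in CD163, 12.05 in Trem2 and 10.11 in CD74, all above the ceiling. On the deposited values CD74 was lowest, by 6.68-fold against Ccrl2, 3.92-fold against CD163 and 3.84-fold against Trem2. Quantile normalization moved these log2 differences from -2.74 to -0.66, from -1.97 to -1.02 and from -1.94 to 0.31, so the place of Trem2 relative to CD74 turned with scaling. Of 9 endothelial markers, 2 lay above the ceiling in CD74, 5 in CD163 and 7 in both Ccrl2 and Trem2, and the log2 of their summed level was 8.97, 9.72, 11.69 and 11.99 in that order. The 2 measured in CD74 were not lowest there: Pecam1 had 6.97 in CD74 and 6.02 in CD163, and Esam 6.84 in CD74 and 5.78 in Trem2. With dim values at the ceiling, 0 endothelial markers were lower in CD74 than in CD163. The 10 macrophage markers were each called lower in CD74 than in each other library on the deposited values, where Lyz2 stood at the top of the scale (19.93) and Spi1 at 19.72 in Ccrl2, CD163 and Trem2, so that their distance from CD74 is limited by the scale. The part of either in the Klf2 values was not tested.

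Txk, a TEC family kinase of resting T cells (probe set TC0500002579.mm.2), was measured in 1 library only. It had 7.75 in CD74 and was not above the ceiling in Trem2 (5.18), CD163 (4.96) and Ccrl2 (4.08). CD74 was at least 4.72-fold, 2.77-fold and 4.23-fold higher than these in turn. Ms4a4b, a 4-pass membrane protein of naive T and NK cells (probe set TC1900000219.mm.2), had 8.06 in CD74, 6.04 in Trem2, 4.82 in CD163 and 4.25 in Ccrl2, the last 2 not above the ceiling. The CD74 value was 4.06-fold above Trem2, at least 3.43-fold above CD163 and at least 5.24-fold above Ccrl2.

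**Figure D2:**
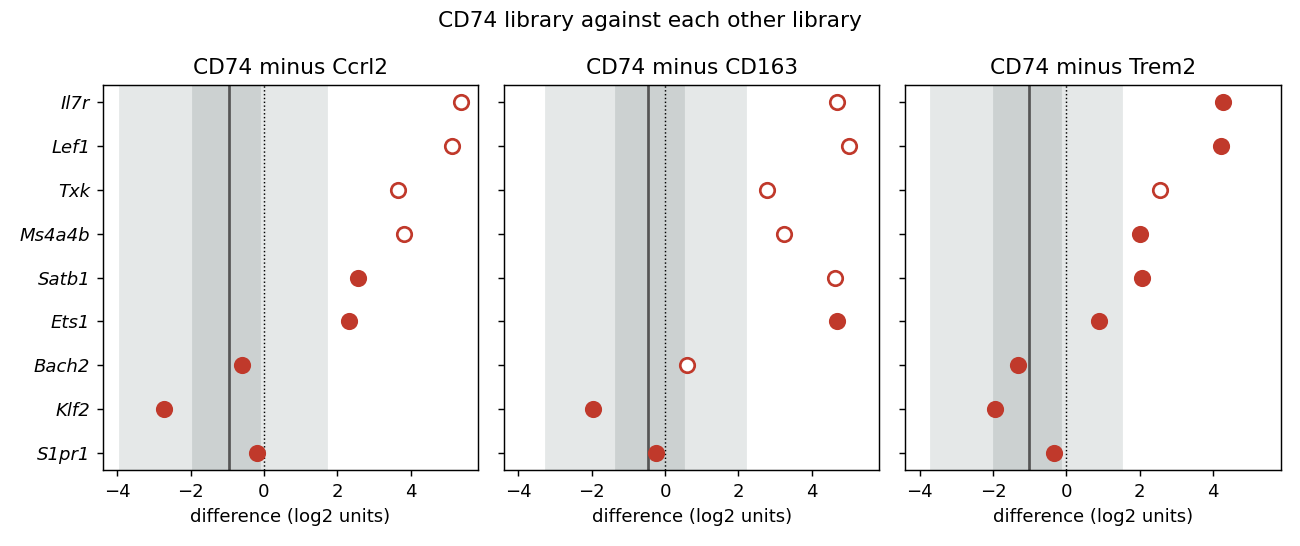
Log2 difference of the CD74 library from Ccrl2, CD163 and Trem2 (x axes) for each gene (y axis), with open circles where the dimmer value was not above its ceiling. The dark line is the median of all genes tested, and the grey bands hold their middle 50% and 90%. Il7r and Lef1 lie between 4.21 and 5.38 in all 3 panels, to the right of the bands, while Bach2, Klf2 and S1pr1 lie within the 90% bands.

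Pair by pair, the members leaned to CD74 where genes at large leaned away from it. Since the members were chosen with earlier results of these data known, the shares of genes beside them are description and not a test. Against Trem2, 5 of 9 members were called higher in CD74 (7.62% of genes) and 2, Bach2 and Klf2, lower (50.5%), with a median of 2.02 log2 units over the 9 members against -1.01 over the 8522 genes tested. Against Ccrl2, 6 were higher (9.01%) and 1, Klf2, lower (48.8%), with a median of 2.56 against -0.96 over 7902 genes. Against CD163, 6 were higher (17.5%) and 1 lower (34.1%), with a median of 3.24 against -0.47 over 5842 genes. These 3 comparisons share the CD74 array, so they are not independent of each other. With dim values at the ceiling, the members higher in CD74 remained 5 against Trem2 (7.62%), 6 against Ccrl2 (7.8%) and 6 against CD163 (9.98%). After quantile normalization 7 members were higher in CD74 in each of the 3, where the shares of all genes also grew, to 18.1% against Trem2, 20.3% against Ccrl2 and 26.5% against CD163.

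Between the other 3 libraries the differences of Il7r, Lef1, Txk and Ms4a4b were smaller. Those of Ets1, Satb1 and Bach2 were not all smaller, with Trem2 minus CD163 at 3.81, 2.58 and 1.92. The shares of members called lay closer to those of genes at large. In Trem2 against Ccrl2, 3 of 8 members tested were higher in Trem2 (11.5%), namely Ets1, Ms4a4b and Il7r, and 0 lower (7.79%). Only Ets1 kept the call with dim values raised to the ceiling (7.92%). In Trem2 against CD163, Ets1, Satb1, Bach2 and Ms4a4b were higher in Trem2, 4 of 8 (38.7%), and 0 lower (7.63%). Ms4a4b lost that call with dim values at the ceiling, which left 3 members (27.6%). Markers of monocytes and neutrophils were higher in Trem2 in the same comparison, in 8 of 8 tested for each list, with medians of 4.44 and 7.10 log2 units. All 8 neutrophil markers lay above the ceiling in Trem2, 5 in CD74, 5 in Ccrl2 and 1 in CD163, with Retnlg at 16.81 in Trem2 and 5.17 in CD163. The log2 of the summed level was 17.28, 9.90, 10.50 and 8.82 for neutrophil markers and 15.58, 13.68, 15.60 and 11.12 for monocyte markers in Trem2, CD74, Ccrl2 and CD163. The largest term of the monocyte sum in Trem2 and Ccrl2 was Nr4a1, at 15.23 and 15.57. Ly6c2 was highest in CD74 (12.55), with 10.98 in Trem2, 6.90 in Ccrl2 and 5.99, not above the ceiling, in CD163. Of 8 monocyte markers tested, 6 were higher in Trem2 than in Ccrl2 (11.5% of genes) and 0 lower (7.79%). Lymphocyte markers also differed between Trem2 and CD163. Those of B cells were higher in Trem2 in 10 of 11 tested and those of NK cells in 6 of 10 (38.7% of genes), with medians of 3.21 and 1.75. None of either was lower. Of 5 T cell markers tested, 1 was higher and 1 lower. The part of any of these marker lists in the Trem2 values of the members was not tested. In Ccrl2 against CD163, Ets1 (5.17-fold), Satb1 (at least 3.76-fold) and Bach2 were higher in Ccrl2, 3 of 5 tested (38.5%), and 0 lower (7.65%). Bach2 missed the threshold there against the CD163 ceiling, at 1.88-fold, which left 2 members (28.1%). The CD163 library thus had the lowest value of Satb1, Ets1 and Bach2, in comparisons where 38.7% and 38.5% of genes were called in the same direction.

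Whether other transcripts of T and NK cells followed the same libraries was read from marker lists, also chosen with earlier results known. Of 14 T cell markers with a probe set, 10 lay above the ceiling in CD74, 4 in Trem2, 2 in Ccrl2 and 2 in CD163. In CD74 9 exceeded all 3 other libraries by 2-fold or more (4.42% of genes). The exception among those measured there was Cd2, with 7.55 in Trem2 and 6.95 in CD74. The log2 of the summed level of the T cell markers was 11.85 in CD74 against 9.42 in Trem2, 9.25 in CD163 and 9.10 in Ccrl2. Cd3e, a chain of the T cell receptor complex, had 9.50 in CD74 and, none of them above the ceiling, 4.56 in Ccrl2, 4.55 in Trem2 with 4.13 in CD163. Cd8a and Cd8b1, the CD8 chains, had 8.01 and 7.79 in CD74 and no value above the ceiling elsewhere, while Lat, a signalling adaptor, had 9.07 in CD74 and 7.21 in CD163. Cd5, Cd6, Zap70 and Skap1 were not above the ceiling in any library, so the T cell list was not uniformly present even in CD74.

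NK cell markers spread over both CD74 and Trem2. Of 12, 10 lay above the ceiling in Trem2, 6 in CD74, 1 in CD163 and 0 in Ccrl2. These counts depend on the ceiling, which was 6.53 in CD74 and 5.51 in Trem2. On the deposited values, 5 of 10 tested were higher in CD74 than in Trem2 (7.62% of genes) and 0 lower (50.5%). The log2 of the summed level was 13.80 in CD74 against 10.98 in Trem2, 9.08 in CD163 and 8.46 in Ccrl2. The largest term of the CD74 sum was Gzma, a granule protease gene, at 13.01 in CD74, 9.71 in Trem2, 6.42 in CD163 and 4.54 in Ccrl2. Il2rb, a receptor chain shared by interleukin-2 and interleukin-15, had 11.91 in CD74, 7.76 in Trem2, 5.33 in CD163 and 4.45 in Ccrl2, and Nkg7, a granule protein, 9.75, 6.10, 5.26 and 5.52. Ncr1, the receptor that defines NK cells, had 7.42 in Trem2 and 6.48, not above the ceiling, in CD74, a difference under the 2-fold threshold. Of 5 markers of group 2 innate lymphoid cells only Rora (6.98 in CD74) was above background there. The summed T and NK cell markers were thus highest in the same library as Il7r, Lef1, Txk and Ms4a4b, and their part in those values was not tested.

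**Figure D3:**
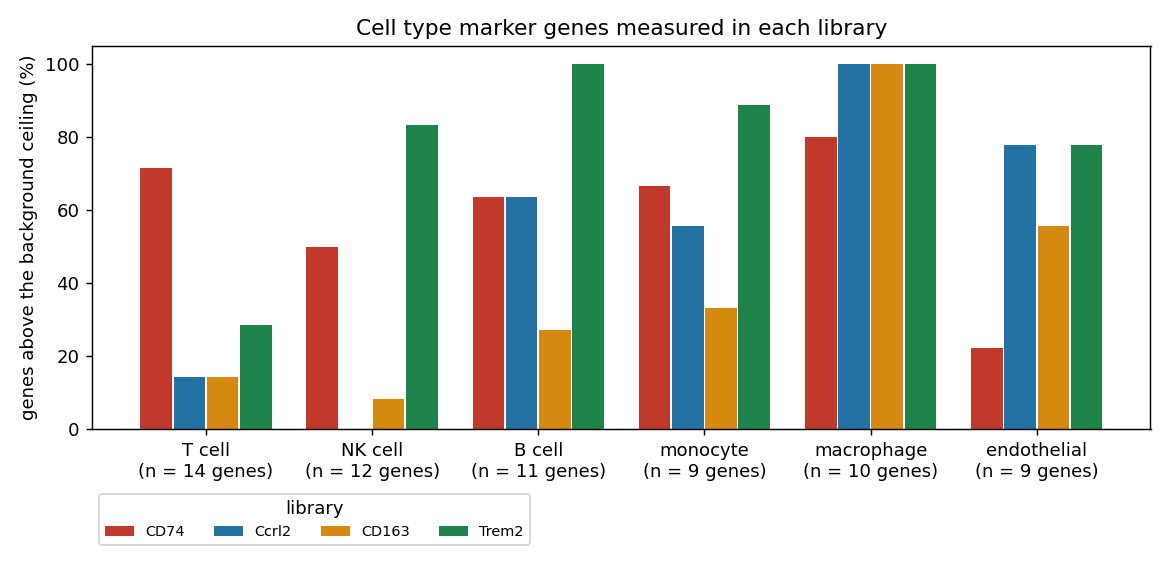
Share of the marker genes of 6 cell types (x axis) that lay above the background ceiling (y axis, percent), with 1 bar per library. T cell markers were above it most often in CD74 (10 of 14), B cell markers in Trem2 (11 of 11), and endothelial markers least often in CD74 (2 of 9).

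The genes whose 4 values ran most like each member were sought among 9024 named genes with a value over some ceiling, by the root mean square distance of the values after centring each gene on its mean. For Il7r these were Nkg7 (distance 0.44 log2 units) and Cd3e (0.47), and for Lef1 the same genes (0.33 and 0.36). For Txk they were Cd7, a surface protein of T and NK cells (0.11), and the dynein gene Dync2h1 (0.14), and for Ms4a4b Ifng, which encodes interferon gamma (0.26), and Klrb1c, the NK1.1 antigen (0.29). Satb1 was nearest to Gimap6, a lymphocyte GTPase gene (0.11), and the ribosomal protein gene Rpl17 (0.15), and Ets1 to Bhlhe40 (0.16) and the lymphocyte receptor gene P2ry10 (0.19). Within 0.3 log2 units of Bach2, Klf2 and S1pr1 lay 466, 188 and 1183 genes, against 0 for Il7r and Lef1, 2 for Ms4a4b, 4 for Satb1, 7 for Ets1 and 16 for Txk. A fixed distance holds more genes where a profile is flat. The ranges of Bach2, Klf2 and S1pr1 were 1.92, 2.74 and 0.34 log2 units, against 5.38 for Il7r and 5.14 for Lef1, so these counts partly restate range. Values under a ceiling entered the distances as deposited. The nearest genes were Txnl4a and H2-T22 for Bach2, Apba1 and Slc48a1 for Klf2, and Mblac1 and Cables1 for S1pr1. A distance over 4 arrays is a description of these arrays.

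Of 5 signalling partners of the interleukin-7 receptor with a value over some ceiling, 3 (Bcl2, Jak1 and Stat5b) had their highest value in CD74, and 0 exceeded all 3 other libraries by 2-fold there (4.42% of genes). Against Trem2, 0 of 4 tested were higher in CD74 (7.62%) and 1 lower (50.5%), with a median of 0.42 log2 units against -1.01 over all genes tested. Bcl2, the survival gene that interleukin-7 sustains, had 8.98 in CD74, 8.81 in Trem2, 7.56 in Ccrl2 and 6.77 in CD163. Jak1, the kinase bound to Il7r, had 8.18, 7.51, 8.03 and 6.11 in the same order, and Stat5a 7.70, 8.87, 8.08 and 8.94. Stat5b had 7.50, 6.74, 6.91 and 6.88. Crlf2, which pairs with Il7r in the receptor for thymic stromal lymphopoietin, was measured in Ccrl2 only (6.71). After quantile normalization those 3 passed the threshold over each other library (10.7% of genes), so this count rests on scaling.

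Of 4 TCF and LEF partners and targets of Lef1 tested against Trem2, 0 were higher in CD74 (7.62% of genes) and 3 lower (50.5%), with a median of -2.16. After quantile normalization 1 was higher (18.1%) and 1 lower (32.6%), with a median of -0.53. Tcf7l2, the relative of Lef1 in many tissues, had 7.96 in Trem2, 7.87 in Ccrl2, 7.45 in CD163 and 5.80, not above the ceiling, in CD74. The corepressor genes Tle1 and Tle4 had 6.79 and 8.59 in CD74 against 8.95 and 10.85 in Trem2, whereas Tle3 had 11.24 in CD74, 11.75 in Trem2, 10.53 in Ccrl2 and 8.78 in CD163. Axin2, a classical target of the pathway, was not above the ceiling in any library.

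Factors of naive identity and quiescence outside the set were mixed. Of 10 tested against Trem2, 1 was higher in CD74, Foxp1 (7.62% of genes), and 6 were lower (50.5%), with a median of -1.59. After quantile normalization 3 were higher (18.1%) and 2 lower (32.6%), with a median of -0.28. Foxp1, a forkhead factor of quiescence, had 18.20 in CD74, 16.89 in Trem2, 16.04 in Ccrl2 and 13.88 in CD163. Ikzf1, the lymphoid factor Ikaros, had 10.89, 10.39, 9.13 and 6.71 in that order, and the antiproliferative gene Btg1 13.45, 13.37, 11.59 and 8.03. Like Ets1, these 3 were lowest in CD163. Foxo1, which drives Il7r and Klf2 in T cells, had 8.52 in Trem2, 7.56 in Ccrl2 and 6.43, not above the ceiling, in CD74, and Bcl11b, a T lineage commitment factor, was not above the ceiling in any library.

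Factors of effector cells gave 0 of 7 higher in CD74 than in Trem2 (7.62% of genes) and 2 lower (50.5%), with a median of -0.07. After quantile normalization 4 were higher (18.1%) and 0 lower (32.6%), with a median of 1.16. Bhlhe40, a factor of effector and resident cells, had 12.19 in CD74, 11.62 in Trem2, 9.99 in Ccrl2 and 7.92 in CD163, and Id2 14.96 in Trem2, 15.12 in Ccrl2, 12.56 in CD74 and 11.58 in CD163. Runx3 had 9.86 in Ccrl2, 9.77 in Trem2, 7.74 in CD74 and 7.48 in CD163. Prdm1, the repressor that Bach2 opposes, had 7.73 in Ccrl2 and 5.96 in Trem2 and, not above the ceiling, 5.84 in CD74 and 4.21 in CD163. Eomes, shared by NK and memory CD8 cells, had 7.11 in CD74 and 6.72 in Trem2, and Tbx21 was not above the ceiling in any library.

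Homing and egress genes were higher in CD74 than in Ccrl2 and CD163, in 4 of 6 (9.01% of genes) and 5 of 6 tested (17.5%), and 0 lower (48.8% and 34.1%). Ccr7, the lymph node homing receptor of naive T cells and dendritic cells, had 14.97 in CD74, 11.68 in Trem2, 11.38 in Ccrl2 and 9.94 in CD163. Cd69, which removes S1pr1 from the cell surface, had 13.52, 12.39, 10.46 and 6.10, the last not above the ceiling, in the same order. Against Trem2 2 of 8 were higher (7.62%) and 1 lower (50.5%), with a median of -0.23, and after quantile normalization 4 were higher (18.1%) and 0 lower (32.6%), with a median of 1.39. Itgal, an integrin chain, had 10.05 in Trem2 and 7.98 in CD74. Ccr7 is also a dendritic cell marker, and of 8 such markers 6, including Flt3, Zbtb46, Xcr1 and Clec9a, were not above the ceiling in any library. The other receptors of the S1pr1 family on the list were at or near background, and S1pr4 was not above the ceiling in any library. S1pr5 had 6.03 in CD74 and 5.81 in both CD163 and Trem2, and passed the ceiling only in Trem2, where it is lowest.

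Relatives of the kinase and the membrane protein were measured next. Tec and Btk, TEC kinases of myeloid and B cells, had 5.86, not above the ceiling, and 6.63 in CD74, whereas Tec had 10.37 in Trem2, 9.72 in CD163 and 10.50 in Ccrl2, and Btk was at least 2-fold above its CD74 value in each of these libraries, where Txk was not above the ceiling. All 3 TEC relatives tested were called lower in CD74 than in Trem2, on the deposited values (50.5% of genes) and after quantile normalization (32.6%). Of 6 MS4A relatives of Ms4a4b, 4 were lower in CD74 than in Trem2 (50.5%) and 0 higher (7.62%), and 3 lower (32.6%) and 1 higher (18.1%) after quantile normalization. The count of lower MS4A relatives on the deposited values was thus close to that of genes at large. Ms4a7, a macrophage member, had 12.44 in Ccrl2, 10.98 in Trem2, 10.06 in CD163 and 5.50, not above the ceiling, in CD74, and Ms4a6c 12.20, 11.64, 11.37 and 7.52. Ms4a4c, another relative, had 9.89 in Trem2, 8.22 in Ccrl2, 8.04 in CD74 and 6.92 in CD163.

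Among paralogs of the member factors, some ran with their member and some did not. Ets2 had 12.71 in Ccrl2, 12.32 in Trem2, 10.24 in CD163 and 6.37, not above the ceiling, in CD74, where Ets1 had its highest value. Bach1 had 10.60, 10.45, 9.34 and 8.99 in the same order of libraries, and Klf4 11.17, 10.43, 10.73 and 9.58. Klf6 had 19.72 in Ccrl2, 19.10 in CD163, 18.50 in Trem2 and 14.96 in CD74, so that Klf4 and Klf6 had the library order of Klf2 on the deposited values. After quantile normalization the median CD74 minus Ccrl2 of the 6 paralogs turned from -1.91 to 0.17. Elf1, an ETS factor of lymphocytes, had 13.50 in CD74, 12.20 in Ccrl2, 11.73 in Trem2 and 9.20 in CD163, highest and lowest in the same libraries as Ets1. Fli1, of the same family, had 11.57 in Trem2 against 9.16 in CD74.

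**Figure D4:**
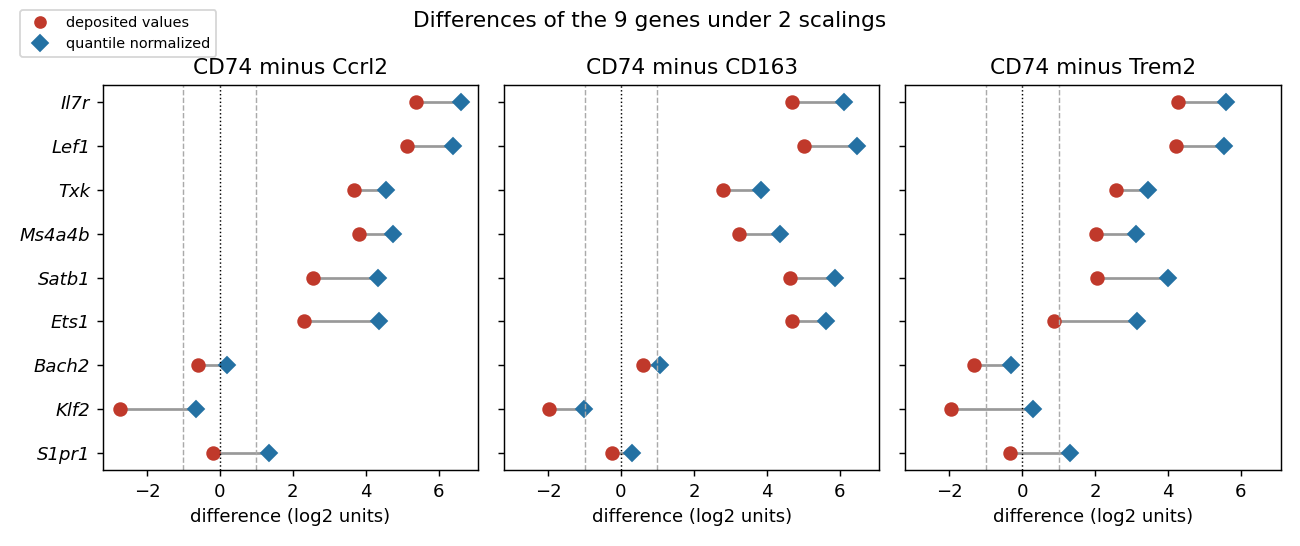
Log2 difference of CD74 from each other library (x axes) for the 9 genes (y axis), as deposited (circles) and after quantile normalization (diamonds), with dashed lines at a 2-fold difference. Il7r, Lef1, Txk, Ms4a4b and Satb1 stay beyond the right-hand line in all panels, and Ets1 against Trem2 moves over it, from 0.88 to 3.14.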

How the data were processed

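Total RNA of 4 sorted macrophage populations was amplified with a small-input kit and hybridised to Clariom S mouse arrays, per the labels' protocols. The authors made the deposited log2 values by robust multichip average, with GeneSpring named per the labels' protocols and Affymetrix Expression Console per the submitters' processing notes. Settings and probe build: not given in the sources used here. That values are log2 was judged from their range. Of 22206 gene probe sets, 19572 had 1 gene symbol, 0 several and 2634 none. The probe set with the highest mean was used where a gene had several. Promoters are from RefSeq (GRCm38.p6).

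Calls, ceilings, lists and distances were computed with Python 3.11.15, numpy 2.4.6 and pandas 2.3.3. The calling rule was run on simulated libraries with a common baseline and a known set of raised genes. Those libraries did not differ in scale as the real ones do, so the run cannot show how the rule behaves here. The members and gene lists were chosen with earlier results of these data known. The naming rule took all members, their 2 nearest genes, and up to 4 genes of each list with the widest range. Some of the last, Cd79a and Cdh5 among them, were left out of the text. Other genes (Bach1, Klf4, Cd5, Ncr1 and the like) were named after their values were seen. Alternatives were quantile normalization, median centring, no ceiling or the library median as ceiling, dim values raised to the ceiling, averaging a gene's probe sets, thresholds of 1.5-fold and 4-fold, and leaving out a library.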

Additional observations from a re-analysis of the deposited data

How the results depend on the processing

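The count of 5 members at least 2-fold higher in CD74 than in each other library stayed between 5 and 6 under all 11 alternatives. Most of these could not lower it. Leaving out a library, no ceiling or the library median as ceiling, and a 1.5-fold threshold can only keep or add calls. Averaging changes nothing with 1 probe set per member. Of the others, quantile normalization gave 6 (10.7% of genes). Median centring gave 5 (4.04%), as did dim values at the ceiling (1.78%) and a 4-fold threshold (1.26%). After quantile normalization, the members lower in CD74 numbered 0 against Trem2 (32.6% of genes) and 0 against Ccrl2 (33.2%), from 2 and 1 as deposited, those lower than CD163 numbered 2 in Trem2 (15.7%) and 1 in Ccrl2 (15%), from 0 and 0, and Klf2 in CD74 minus Trem2 turned to 0.31. It also reduced the median CD74 minus Trem2 over all genes tested from -1.01 to -0.39. With dim values raised to the ceiling, 1 member in place of 3 was higher in Trem2 than in Ccrl2 (7.92%), and the called differences of Il7r in Trem2 minus Ccrl2 (-0.11) and Ms4a4b in Trem2 minus CD163 (-0.24) turned, as did the uncalled ones of Lef1 (-0.12 and -0.73) and of Il7r in Trem2 minus CD163 (-0.72). Here the ceilings, which differ between libraries, set the sign. A 1.5-fold threshold gave 2 members lower in CD74 than in Ccrl2 (61.6%), and 5 higher (23.8%) and 1 lower (18.3%) in Trem2 than in Ccrl2. A 4-fold threshold gave 0 lower in CD74 than in Trem2 (24.1%), 0 lower than in CD163 (14.3%), 0 higher in Trem2 than in Ccrl2 (1.53%) and 2 higher in Trem2 than in CD163 (13.8%). Of 210 recomputed differences of single members, 164 moved by less than 1.5-fold and 46 further. Averaging probe sets could move none of its 54, since each member had 1. Median centring moved none of its 54 that far, as library medians lay between 5.13 and 5.30. In quantile normalization 22 stayed within 1.5-fold, 31 moved further and 1 reversed. With dim values at the ceiling 34 stayed, 12 moved and 2 reversed. Over all 210 the sign changed in 16. Of these, 3 (Klf2, Il7r and Ms4a4b above) had been called 2-fold, and the others include S1pr1 and Bach2 after quantile normalization. No paired analysis was possible because each population was 1 library with no replicate number. Signal near background limits Il7r, Lef1 and Ms4a4b in Ccrl2 and CD163 and Txk in all 3 other libraries, where folds are bounds, and Il7r and Lef1 in Trem2 lie just above it.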
